A study of Mus musculus with 45 samples.

Results

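The CC chemokine receptors described here are 8 genes taken from a fixed list of names: Ccr1, Ccr2, Ccr6, Ccr9, Ccr10, Ccrl2, Ackr2 and Ackr4. All 8 were found among the 50600 gene identifiers of the count and TPM tables, and all 8 passed the expression filter in every fit. RNA had been sequenced from the distal colon of mice lacking Il10, the gene of the anti-inflammatory cytokine interleukin 10, and of wild-type mice. Knockout animals of this kind are a common model of colitis. The knockout groups were vehicle (10 libraries), compound 13 at 10 mg/kg (7 libraries), compound 13 at 30 mg/kg (9 libraries), and, in a separate set labelled day 77, an antibody to p40 (5 libraries) and vehicle (5 libraries). Untreated wild-type mice gave 8 libraries. Compound 13 is an antagonist of GPR4, a receptor that senses protons outside the cell. The antibody binds p40, the subunit shared by interleukins 12 and 23. Every group except wild type carried the Il10 deletion, including the vehicle groups. No wild-type library was labelled day 77, and the wild-type mice were not given vehicle, so vehicle and genotype cannot be told apart in the knockout comparison. The labels give no age, sex, strain background or length of treatment, and do not say whether libraries came from separate animals. The p-values thus speak to the variation among the libraries at hand, part or all of which could be technical. 1 further knockout library carries 30 mg/kg in 1 label and 10 mg/kg in another and entered no comparison.

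CC chemokine receptors are proteins of the G-protein-coupled family that steer leukocytes along gradients of CC chemokines. Ccr1 and Ccr2 act mainly on myeloid cells, Ccr6, Ccr9 and Ccr10 on lymphocytes that home to mucosal tissue, and the atypical receptors Ackr2, Ackr4 and Ccrl2 bind ligands without the usual signalling, by which Ackr2 and Ackr4 remove chemokines from tissue. In inflamed colon, receptor RNA is read from whole tissue, so a lower value from fewer cells of a type and a lower value from less RNA per cell cannot be told apart.

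Total counts per library ran from 22682491 to 36279774. Il10 itself had 10 counts over the 8 wild-type libraries, 4 of which had any, and 0 counts in all 37 knockout libraries, which allows up to 0.00294 CPM over those libraries. This low wild-type level makes Il10 a weak check of the labels. Summed distal colon markers lay between 2361 and 7179 TPM in all groups. Summed markers of pancreatic acinar cells reached 14561 TPM in a knockout vehicle library and 10112 TPM in a wild-type library, against group medians of 25.1 and 0.53 TPM. They also reached 9808 TPM in a 30 mg/kg library and 7739 TPM in an anti-p40 library. Their part in the results was not tested beyond leaving libraries out.

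6 of the 8 genes lie on mouse chromosome 9 (GRCm38). Ccr9 (chr9:123678439-123784330), Ccr1 (chr9:123962124-123968692) and Ccr2 (chr9:124101950-124113557) are neighbours, with gaps of 178 kb between Ccr9 and Ccr1 and 133 kb between Ccr1 and Ccr2. Ackr2 (chr9:121898355-121911074) and Ccrl2 (chr9:111054486-111057519) lie nearer the start of that chromosome, and Ackr4 lies at chr9:104084157-104126933. Ccr6 lies on chromosome 17 (chr17:8236043-8257141) and Ccr10 on chromosome 11 (chr11:101172997-101175443). The strand setting of the library kit is not given in the sources used here, so reads of overlapping genes on opposite strands cannot be told apart. Ackr4 lies wholly within Acad11 on the other strand and shares 479 of its 5380 exon bases with it. Acad11 averaged 3957 counts per library, while Ackr4 had a median of 92.6 counts. Ccr9 overlaps 6 annotated genes, and Ccr10 lies within Cntnap1 on the other strand with 0 shared exon bases.

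Upstream sequence was read for 7 of the 8 genes from RefSeq promoters (GRCm38.p6) and searched on both strands, over the 250 bases before the start, for 4 short motifs of inflammatory transcription factors. The motifs were the PU.1 box GAGGAA, the GAS element TTCNNNGAA, the core of the interferon-stimulated response element and the core of the kappaB site. Of 32851 promoters in that table, 23.3% held the PU.1 box, 7.02% the GAS element, 2.98% the interferon-stimulated core and 4.65% the kappaB core. Windows are shown for Ccr1 and Ccrl2, which were called in both the knockout and the anti-p40 comparisons, and for Ccr6, which was called in neither. Capitals mark matched motifs. The windows are Ccr1 (chr9:123968693-123968942, minus strand), Ccrl2 (chr9:111057519-111057768, minus strand) and the first of the Ccr6 starts (chr17:8235793-8236042, plus strand):
Ccr1: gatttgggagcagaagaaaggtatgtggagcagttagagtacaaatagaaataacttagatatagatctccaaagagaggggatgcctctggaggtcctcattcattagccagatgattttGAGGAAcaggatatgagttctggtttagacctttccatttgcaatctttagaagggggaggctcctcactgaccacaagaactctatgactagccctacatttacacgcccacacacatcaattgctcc
Ccrl2: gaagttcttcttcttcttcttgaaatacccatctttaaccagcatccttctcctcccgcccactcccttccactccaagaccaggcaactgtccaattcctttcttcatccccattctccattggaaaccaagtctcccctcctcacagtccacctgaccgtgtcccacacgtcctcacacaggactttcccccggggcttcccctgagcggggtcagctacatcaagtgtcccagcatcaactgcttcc
Ccr6: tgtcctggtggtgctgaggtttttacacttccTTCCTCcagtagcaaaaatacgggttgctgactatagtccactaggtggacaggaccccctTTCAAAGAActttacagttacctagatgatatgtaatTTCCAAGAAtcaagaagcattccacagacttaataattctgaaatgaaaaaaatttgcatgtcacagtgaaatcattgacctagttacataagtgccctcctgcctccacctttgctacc
The Ccr1 window held a PU.1 box 129 bases before the start. The Ccr6 window held a PU.1 box on the reverse strand at 218 bases and GAS elements at 157 and 120 bases before the start. None of the 4 patterns was matched in the Ccrl2 window shown, which does not exclude other forms of these sites there. The windows of Ccr2, also called in both comparisons, and of Ccr9, Ackr2 and Ackr4 likewise held no match. The second Ccr6 start had a kappaB core 81 bases before it and none of the other motifs. A match of this kind describes the letters only.

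Receptor levels were compared between genes by TPM, which corrects for transcript length. In knockout vehicle colon the order ran Ccr1 (6.02 ± 3.34 TPM), Ccr6 (5.36 ± 2.98), Ccr2 (4.65 ± 3.10), Ccr10 (3.54 ± 1.73), Ackr4 (2.39 ± 1.43), Ccrl2 (2.24 ± 1.01), Ackr2 (1.10 ± 0.857) and Ccr9 (0.747 ± 0.424; SD, n = 10). In wild-type colon it ran Ackr4 (5.43 ± 1.68 TPM), Ccr6 (3.08 ± 1.88), Ccr1 (2.14 ± 0.576), Ccr10 (1.94 ± 0.511), Ccrl2 (1.33 ± 0.586), Ccr2 (1.23 ± 0.188), Ackr2 (0.836 ± 0.582) and Ccr9 (0.389 ± 0.212; SD, n = 8). Ackr4 thus stood behind 4 other receptors in knockout vehicle colon and headed the order in wild type. In knockout vehicle colon, neighbours in the order differed by less than the larger of their SDs, except Ccrl2 and Ackr2. In wild type the exceptions were Ackr4 with Ccr6 and Ccr10 with Ccrl2. In the day 77 groups the order began with Ccr6 (3.62 ± 1.40 TPM, n = 5) under anti-p40, and with Ccr2 (7.69 ± 3.15 TPM, n = 5) under vehicle.

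**Figure D1:**
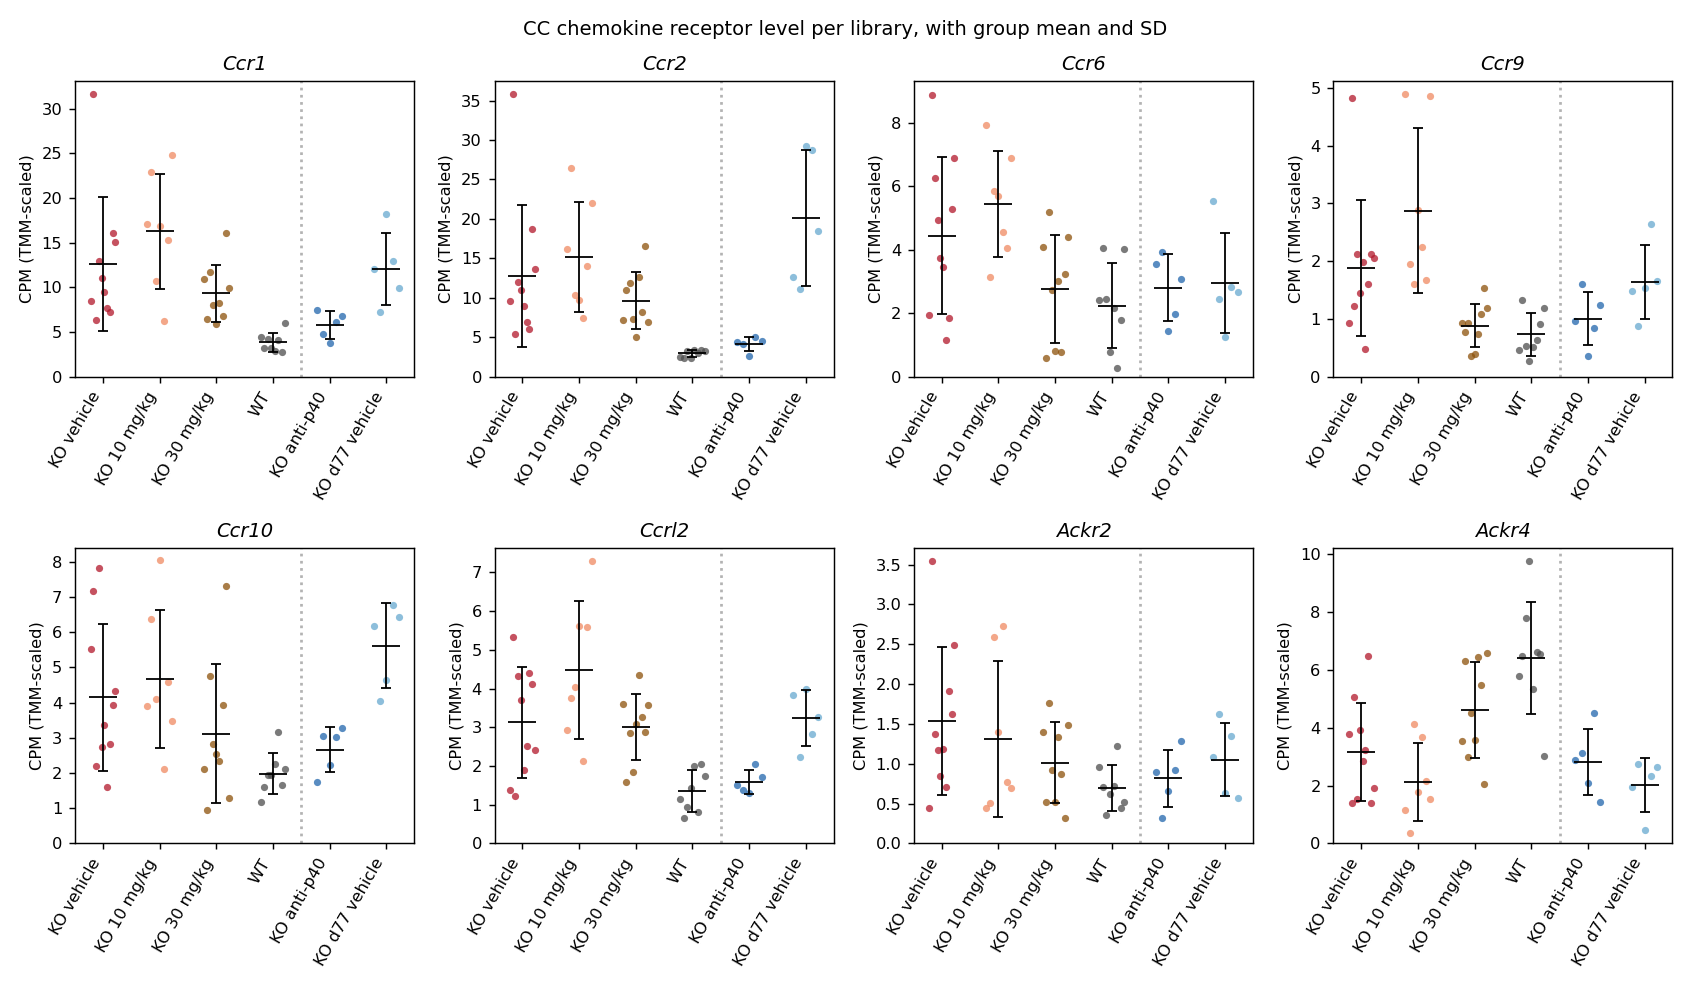
Level of each CC chemokine receptor in each library, in CPM scaled by TMM, on axes that start at 0. Points are libraries, the bar and whiskers are the group mean and SD, and the dotted line parts the 4 groups of the first set from the day 77 groups. Every knockout vehicle point for Ccr1 and Ccr2 lies above every wild-type point, and all 5 anti-p40 points for Ccr2, Ccr10 and Ccrl2 lie below all 5 day 77 vehicle points.

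The knockout comparison asks how the colon of vehicle-treated Il10 knockout mice differed from wild type. 6 of the 8 receptors were higher in knockout colon (Ccr1, Ccr2, Ccr9, Ccr10, Ccrl2 and Ackr2) and 1 was lower (Ackr4), while Ccr6 did not pass. Over all 16435 genes tested, 25.2% were called higher and 24.1% lower. The median log2 fold change was 1.17 over the 8 receptors and -0.01 over all genes tested. Levels within a gene are given as CPM, the share of a library's counts scaled by TMM, as lowest, median and highest per group. The threshold for a call was 0.05 on the adjusted p of edgeR's quasi-likelihood test.

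Ccr2, which brings inflammatory monocytes out of the bone marrow, changed most. Its level was 5.36, 10.3 and 35.8 CPM in knockout vehicle libraries, against 2.37, 3.14 and 3.44 CPM in wild type. All 10 knockout libraries lay above all 8 wild-type libraries, an arrangement that held for 3.14% of genes tested. The log2 fold change was 2.11 ± 0.32 (SE; edgeR adjusted p = 7.8e-05). Ccr1, a receptor for Ccl5 and Ccl9 on neutrophils and monocytes, had 6.31, 10.3 and 31.7 CPM in knockout vehicle libraries and 2.77, 3.65 and 6.02 CPM in wild type. Again the groups did not overlap, and the log2 fold change was 1.71 ± 0.29 (edgeR adjusted p = 0.000171). The highest knockout value of Ccr1, Ccr2 and Ccr9 came from the same library, replicate 2. Without it the log2 fold changes lay no lower than 1.44 for Ccr1, 1.78 for Ccr2 and 1.07 for Ccr9, and all 3 remained called.

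Among the lymphocyte receptors, Ccr9, the receptor for Ccl25 that guides T cells to the small intestine, had 0.486, 1.80 and 4.83 CPM in knockout vehicle libraries and 0.272, 0.585 and 1.33 CPM in wild type. Its log2 fold change was 1.35 ± 0.38 (edgeR adjusted p = 0.00716), with 9 of 10 knockout libraries above the wild-type mean. Ccr10, the receptor for Ccl28 and Ccl27 on IgA plasma cells, had 1.59, 3.65 and 7.82 CPM in knockout vehicle libraries and 1.18, 1.94 and 3.16 CPM in wild type. The groups overlapped, with 6 of 10 knockout libraries above all wild-type ones, and the log2 fold change was 1.06 ± 0.29 (edgeR adjusted p = 0.00561). Ccr6, the receptor for Ccl20 on B cells and interleukin 17-producing T cells, had 1.15, 4.35 and 8.89 CPM in knockout vehicle libraries and 0.260, 2.30 and 4.06 CPM in wild type. Its estimate of 0.98 ± 0.44 on the log2 scale did not pass (edgeR adjusted p = 0.0719; 95% interval 0.06 to 1.90). Both groups were wide. The call was gained with DESeq2 (adjusted p = 0.0395) and in edgeR without wild-type replicate 2 (adjusted p = 0.0487), wild-type replicate 8 (0.0494) or knockout vehicle replicate 7 (0.0417).

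The atypical receptors parted. Ccrl2, which binds chemerin and does not signal, had 1.22, 3.11 and 5.34 CPM in knockout vehicle libraries and 0.664, 1.29 and 2.06 CPM in wild type. 9 of 10 knockout libraries lay above the wild-type mean, and the log2 fold change was 1.20 ± 0.31 (edgeR adjusted p = 0.00453). Ackr2, a scavenger of inflammatory CC chemokines known from lymphatic endothelium, had 0.447, 1.28 and 3.55 CPM in knockout vehicle libraries and 0.360, 0.662 and 1.22 CPM in wild type. Its log2 fold change was 1.13 ± 0.36 (edgeR adjusted p = 0.0148). On TPM the Ackr2 difference was not called, at 0.15 on the log2(TPM + 1) scale (limma adjusted p = 0.593), and Ccrl2 was also lost there (limma adjusted p = 0.0511). Ackr4, a scavenger of Ccl19, Ccl21 and Ccl25 in stroma, had 1.40, 3.03 and 6.48 CPM in knockout vehicle libraries and 3.03, 6.52 and 9.75 CPM in wild type. 9 of 10 knockout libraries lay below the wild-type mean, and the log2 fold change was -1.03 ± 0.29 (edgeR adjusted p = 0.0073). Acad11, which overlaps it, was at 0.15 ± 0.09 and was not called (edgeR adjusted p = 0.195). Ackr4 made up 1.04% to 8.38% of the Acad11 level in TPM in knockout vehicle libraries, and 3.21% to 13.1% in wild type.

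Markers of the cells that these receptors are known from moved in the same comparison. Summed over their lists, monocyte and macrophage markers spanned 601 to 1823 TPM in knockout vehicle libraries and 405 to 626 TPM in wild type, with 9 of 10 called higher and 0 lower. Neutrophil markers spanned 259 to 5271 TPM in knockout vehicle libraries and 195 to 299 TPM in wild type, with 4 of 4 tested called higher. Plasma cell markers spanned 1927 to 9766 TPM in knockout vehicle libraries and 789 to 1557 TPM in wild type, with 5 of 6 higher. All 9 T cell markers were called higher, as were 3 of 7 B cell markers. T cell markers spanned 40.1 to 110 TPM in knockout vehicle libraries and 12.0 to 43.7 TPM in wild type, and B cell markers 39.0 to 246 TPM and 15.3 to 163 TPM. Markers of type 3 lymphocytes, the interleukin 17-producing kind, stand beside Ccr6 too. They spanned 33.3 to 53.2 TPM in knockout vehicle libraries and 52.5 to 77.5 TPM in wild type. Of 5 such markers, 1 was tested, and it was called lower (-0.60). Fibroblast markers, which stand beside Ackr4, spanned 132 to 410 TPM in knockout vehicle libraries and 274 to 517 TPM in wild type, with 6 of 7 called lower (median log2 fold change -0.97). Smooth muscle markers had 5 of 5 called lower (median -1.28), and spanned 183 to 4694 TPM in knockout vehicle libraries and 2843 to 6549 TPM in wild type. Epithelial markers had 5 of 6 called higher (median 0.64), and spanned 8626 to 15802 TPM in knockout vehicle libraries and 8292 to 10021 TPM in wild type. Lymphatic markers, beside Ackr2, had 2 of 5 called lower, and spanned 4.81 to 23.7 TPM in knockout vehicle libraries and 17.2 to 30.8 TPM in wild type. Apart from the type 3 marker Il22, at 0 in all wild-type libraries, no marker of these lists was at 0 throughout a group. These counts stand beside 25.2% of all genes called higher and 24.1% called lower. The part of these markers in the receptor results was not tested.

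**Figure D2:**
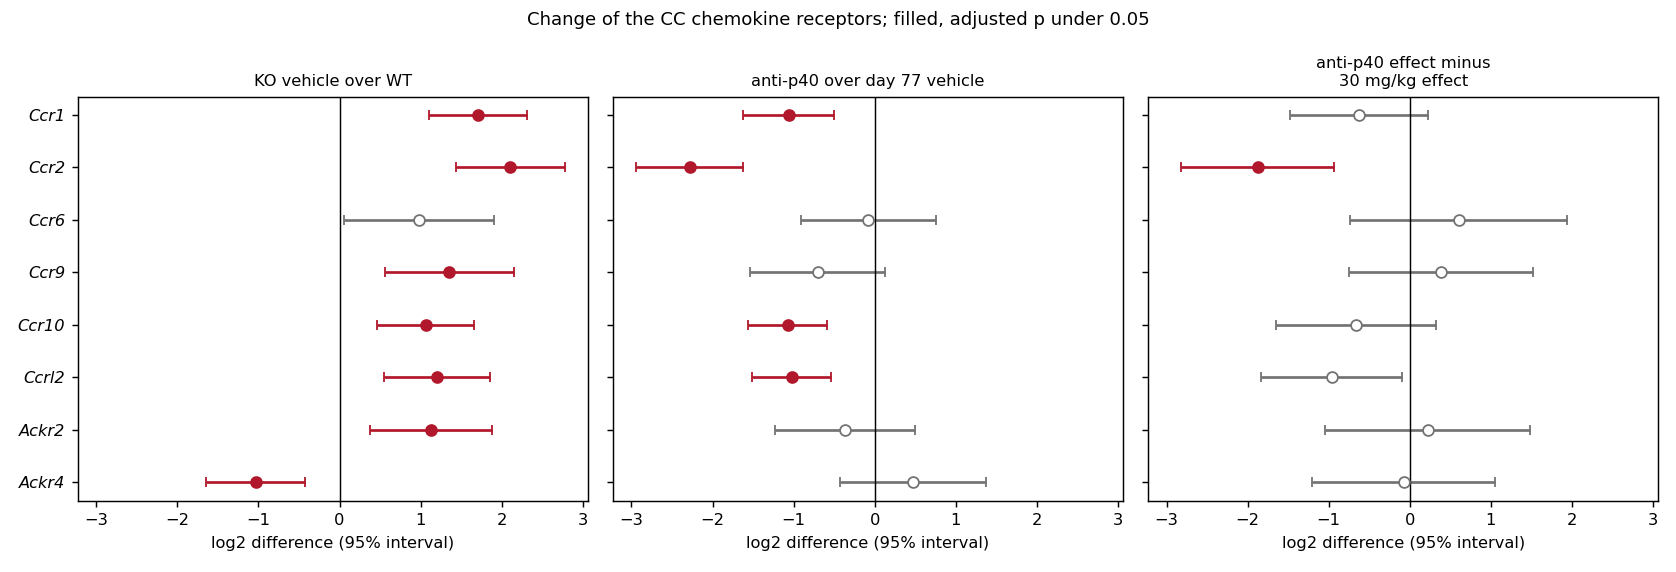
Log2 differences of the 8 receptors with their 95% intervals for knockout vehicle over wild type, anti-p40 over day 77 vehicle, and the anti-p40 effect minus the 30 mg/kg effect. Filled points passed an adjusted p of 0.05. Ccr1, Ccr2, Ccr10 and Ccrl2 are filled to the right in the first panel and to the left in the second, and Ccr2 alone is filled in the third.

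The second comparison asks what the p40 antibody changed in knockout colon at day 77. 4 of the 8 receptors were lower under the antibody (Ccr2, Ccr1, Ccr10 and Ccrl2), and none was higher. Over all 16470 genes tested, 8.32% were called lower and 8.35% higher. The median log2 fold change was -0.86 over the receptors and 0.01 over all genes.

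Ccr2 had 4.34, 4.17, 2.58, 4.97 and 4.52 CPM under anti-p40, against 12.6, 11.1, 29.3, 28.8 and 18.5 CPM under day 77 vehicle. The groups did not overlap, as was so downward for 7.58% of genes tested. The log2 fold change was -2.28 ± 0.30 (SE, n = 5 each; edgeR adjusted p = 0.00106). Ccr1 had 7.50, 4.74, 3.75, 6.11 and 6.83 CPM under anti-p40, and 12.1, 7.19, 18.2, 12.9 and 9.94 CPM under day 77 vehicle. Its groups overlapped by 1 anti-p40 library, and the log2 fold change was -1.06 ± 0.26 (edgeR adjusted p = 0.0187).

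Ccr10 had 1.76, 3.05, 2.22, 3.02 and 3.28 CPM under anti-p40, and 6.18, 4.05, 4.66, 6.79 and 6.43 CPM under day 77 vehicle. The groups did not overlap (log2 fold change -1.07 ± 0.22; edgeR adjusted p = 0.00953). Ccrl2 had 1.51, 1.37, 1.29, 2.06 and 1.72 CPM under anti-p40, and 3.83, 2.23, 3.99, 2.83 and 3.27 CPM under day 77 vehicle. It did not overlap either (log2 fold change -1.02 ± 0.22; edgeR adjusted p = 0.0118). In a single fit of all 6 groups, Ccr10 and Ccrl2 lost their calls (edgeR adjusted p = 0.0822 and 0.0584), which left 2 receptors called lower.

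The other receptors did not pass. Ccr9 had 0.360 to 1.60 CPM under anti-p40 and 0.874 to 2.65 CPM under day 77 vehicle, with an estimate of -0.70 ± 0.38 (edgeR adjusted p = 0.229). Ccr6 had 1.44 to 3.94 CPM under anti-p40 and 1.26 to 5.55 CPM under day 77 vehicle, an estimate of -0.08 with a 95% interval of -0.91 to 0.75. Ackr2 lay at -0.37 (95% interval -1.23 to 0.50). Ackr4 had 1.44 to 4.49 CPM under anti-p40 and 0.474 to 2.74 CPM under day 77 vehicle, an estimate of 0.48 with a 95% interval of -0.43 to 1.38. These intervals leave room for differences in either direction.

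The same marker lists were read in this comparison, where 8.32% of all genes were called lower and 8.35% higher. Monocyte and macrophage markers spanned 561 to 757 TPM under anti-p40 and 1039 to 1747 TPM under day 77 vehicle, without overlap, and 8 of 10 were called lower. Neutrophil markers had 3 of 4 called lower, and spanned 219 to 949 TPM under anti-p40 and 529 to 4387 TPM under day 77 vehicle. Plasma cell markers spanned 2098 to 3658 TPM under anti-p40 and 5339 to 8268 TPM under day 77 vehicle, with 3 of 6 lower. T cell markers had 8 of 9 lower, and B cell and fibroblast markers had 0 of 7 each called in either direction. Distal colon markers spanned 3875 to 5351 TPM under anti-p40 and 2361 to 3282 TPM under day 77 vehicle, and smooth muscle markers 2388 to 5474 TPM and 694 to 2076 TPM, both without overlap. The part of these markers was not tested.

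**Figure D3:**
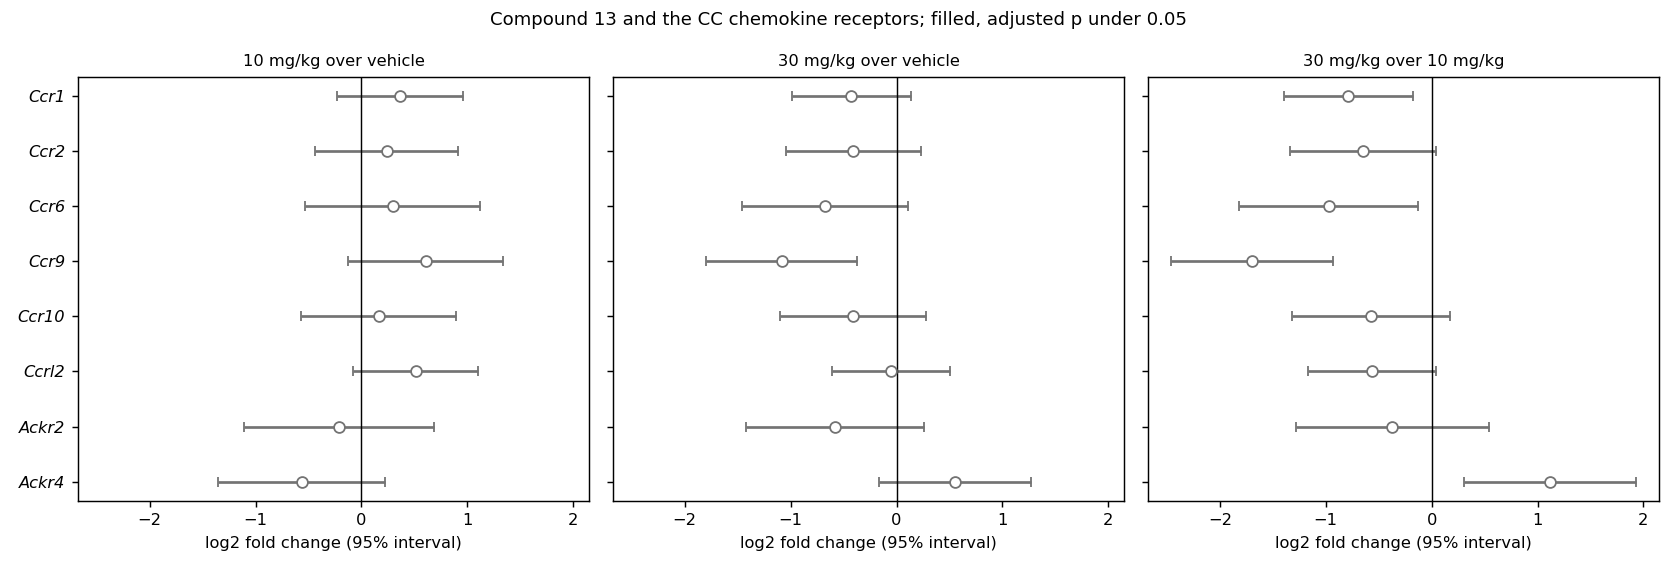
Log2 fold changes of the 8 receptors with their 95% intervals for compound 13 at 10 mg/kg over vehicle, at 30 mg/kg over vehicle, and at 30 mg/kg over 10 mg/kg. No point is filled, since none passed an adjusted p of 0.05. Ccr9 at 30 mg/kg over 10 mg/kg lies farthest from 0, at -1.69.

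The compound comparisons ask whether GPR4 antagonism changed the receptors in knockout colon. At 10 mg/kg over vehicle none of the 8 was called, against 0.0118% of 16948 genes tested (2 genes; 1865 at an unadjusted p under 0.05). At 30 mg/kg over vehicle none was called either, with 0.0% of genes called (1004 at an unadjusted p under 0.05), and DESeq2 called 1 gene. The 2 doses share the vehicle libraries, so their estimates are given side by side without a test of likeness. At 10 mg/kg, 6 of 8 estimates lay above 0, with a median of 0.27. At 30 mg/kg, 7 of 8 lay below 0, with a median of -0.42.

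Ccr9 had 0.486, 1.80 and 4.83 CPM in vehicle libraries, 1.60, 2.25 and 4.89 CPM at 10 mg/kg, and 0.362, 0.925 and 1.53 CPM at 30 mg/kg. All 9 libraries at 30 mg/kg lay below the vehicle mean, yet the estimate of -1.08 ± 0.35 did not pass over all genes (edgeR adjusted p = 0.835; unadjusted p = 0.00424). At 10 mg/kg the estimate was 0.61 ± 0.36 (edgeR adjusted p = 0.54). Over vehicle, Ccr6 was at 0.30 ± 0.40 at 10 mg/kg and -0.68 ± 0.38 at 30 mg/kg on the log2 scale. Ccr1 was at 0.36 ± 0.29 at 10 mg/kg and -0.43 ± 0.27 at 30 mg/kg, and Ccr2 at 0.24 ± 0.33 and -0.41 ± 0.31, in that order of doses. In the same order, Ccr10 was at 0.16 ± 0.36 and -0.41 ± 0.34, and Ackr2 at -0.21 ± 0.44 and -0.58 ± 0.41. Ackr4 was at -0.56 ± 0.38 and 0.55 ± 0.35, and Ccrl2 at 0.51 ± 0.29 and -0.05 ± 0.27. None of these estimates was called, and single libraries moved several of them. Leaving out a library, the 10 mg/kg estimates spanned 0.055 to 0.56 for Ccr2 and 0.23 to 0.63 for Ccr1. Those at 30 mg/kg spanned -0.54 to -0.087 for Ccr2 and -0.56 to -0.16 for Ccr1. The upper end of each of these spans was reached without knockout vehicle replicate 2, without which Ccr9 was at 0.88 at 10 mg/kg and -0.81 at 30 mg/kg.

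The 2 doses were also set against each other. No gene passed, 0.0% of 16948 (2451 at an unadjusted p under 0.05). Ccr9 differed most among the 8, with all 9 libraries at 30 mg/kg below all 7 at 10 mg/kg, an arrangement that held in that direction for 0.153% of genes. Its log2 fold change was -1.69 ± 0.37 (edgeR adjusted p = 0.0779). It was called by DESeq2 (adjusted p = 0.0051), in a single fit of all 6 groups (edgeR adjusted p = 0.0157), and without replicate 9 of the 30 mg/kg group (edgeR adjusted p = 0.0413). Those were the only calls, 2 among 8 other settings and 1 among 16 fits that left out a library. Over those 16 fits the edgeR adjusted p reached 0.169. On TPM the doses met, with 0.60 as both the highest 30 mg/kg level and the lowest 10 mg/kg level. The other estimates for 30 mg/kg over 10 mg/kg were -0.97 ± 0.41 for Ccr6, -0.79 ± 0.30 for Ccr1, -0.65 ± 0.34 for Ccr2, -0.57 ± 0.36 for Ccr10, -0.56 ± 0.30 for Ccrl2, -0.37 ± 0.44 for Ackr2 and 1.12 ± 0.40 for Ackr4. None passed over all genes, the smallest edgeR adjusted p being 0.197, for Ackr4. Smooth muscle markers differed between doses in the median by 1.27 on the log2 scale, higher at 30 mg/kg, with 0 of 5 called. Medians were -0.99 for B cell, -0.67 for neutrophil, -0.57 for monocyte and macrophage, -0.48 for T cell and -0.45 for plasma cell markers. Fibroblast markers were at 0.23, adipocyte markers at 3.60 and acinar markers at 5.70. No marker of these lists was called, and their part was not tested.

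Each dose was also set against wild type, with the wild-type libraries shared with the vehicle comparison. At 30 mg/kg, 3 of 8 receptors were called higher (Ccr1 at 1.28 ± 0.21, Ccr2 at 1.70 ± 0.21 and Ccrl2 at 1.15 ± 0.26; 22.6% of genes were called higher) and none lower (21.3% of genes). At 10 mg/kg, 6 were called higher (24.0% of genes) and Ackr4 lower, at -1.60 ± 0.38 (23.5% of genes). The 6 were Ccr1, Ccr2, Ccr6, Ccr9, Ccr10 and Ccrl2, with log2 fold changes of 2.07, 2.35, 1.27, 1.97, 1.23 and 1.72. Cell type markers moved in the same comparisons. At 10 mg/kg over wild type, monocyte and macrophage markers had 8 of 10 called higher, neutrophil markers 4 of 4, T cell markers 9 of 9, B cell markers 6 of 7 and plasma cell markers 5 of 6. At 30 mg/kg over wild type, the counts called higher were 4 of 10, 4 of 4, 8 of 9, 0 of 7 and 5 of 6 in the same order of lists. Fibroblast markers had 6 of 7 called lower at each dose. Smooth muscle markers had 5 of 5 called lower at 10 mg/kg (median -2.21) and 3 of 5 at 30 mg/kg (median -0.92). Lymphatic markers had 4 of 5 called lower at each dose, and epithelial markers had 6 of 6 called higher at 10 mg/kg and 5 of 6 at 30 mg/kg. The part of these markers was not tested. Ccr9 was at 0.28 ± 0.34 at 30 mg/kg over wild type and was not called there (edgeR adjusted p = 0.529). Whether the calls of the 2 doses differ is read from the direct comparison above.

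The antibody effect and the 30 mg/kg effect were then compared in a single test of their difference. Ccr2 fell by more under the antibody, with a difference of -1.87 ± 0.47 on the log2 scale (edgeR adjusted p = 0.0242), against 1.2% of 18021 genes called in that direction and 0.444% in the other. The call was lost without day 77 vehicle replicate 3 (edgeR adjusted p = 0.0793) or 4 (0.0627), or anti-p40 replicate 2 (0.0549) or 3 (0.0655), and held without each of the other 6 day 77 libraries. No library of the first set, knockout vehicle replicate 2 included, was left out of this test. No other receptor passed. Ccrl2 was at -0.96 ± 0.43 (edgeR adjusted p = 0.255), Ccr1 at -0.63 ± 0.42 and Ccr10 at -0.66 ± 0.49. The antibody and the compound were given in separate sets of libraries, so set and treatment cannot be told apart in this difference.

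Ligands of the receptors were read from a list of 19 genes. In knockout vehicle over wild type, 8 of 17 tested were called higher and 3 lower, against 25.2% and 24.1% of all genes tested. Ccl8, an attractant of monocytes, rose most, with 14.1 ± 10.9 CPM in knockout vehicle colon and 0.828 ± 0.229 CPM in wild type (SD), a log2 fold change of 4.08 ± 0.49 (edgeR adjusted p = 9.57e-06). The Ccr2 ligands Ccl2 (1.998 ± 0.42) and Ccl7 (2.62 ± 0.50) and the Ccr1 ligands Ccl5 (3.26 ± 0.53) and Ccl9 (0.64 ± 0.17) rose on the log2 scale. Ccl20 (0.37 ± 0.28), Ccl25 (0.18 ± 0.12), Ccl28 (0.26 ± 0.12) and Ccl27a (-0.87 ± 0.38), the ligands of Ccr6, Ccr9 and Ccr10, did not pass. Of the Ackr4 ligands, Ccl21a was lower (-0.69 ± 0.28; edgeR adjusted p = 0.0478) and Ccl19 was not called (0.85 ± 0.58). Rarres2, which encodes chemerin, was lower, at -0.38 ± 0.13 (edgeR adjusted p = 0.0239), and Ccl11, the eosinophil attractant, fell by the most, at -1.02 ± 0.26.

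Under anti-p40, 4 of 19 ligands were called lower and 1 higher, against 8.32% and 8.35% of all genes tested. Ccl8 (-2.41 ± 0.42), Ccl7 (-1.997 ± 0.49), Ccl5 (-2.82 ± 0.68) and Ccl4 (-4.92 ± 1.18) were lower on the log2 scale, and Ccl11 was higher (1.10 ± 0.32; edgeR adjusted p = 0.0388). Ccl2, at -1.09 ± 0.38, did not pass (edgeR adjusted p = 0.0687), nor did Ccl9, Ccl19, Ccl20, Ccl21a, Ccl25, Ccl27a, Ccl28 or Rarres2. Ccl4 averaged 0.0717 CPM under anti-p40, so its fold change rests on few counts. Among 6 other chemokine receptors, Ccr4 (3.04 ± 0.49) and Ccr7 (1.25 ± 0.45) were higher and the scavenger Ackr3 (-0.87 ± 0.17) lower in knockout vehicle colon, of 4 tested. Over all genes in that comparison, 25.2% were called higher and 24.1% lower. None of the 4 tested was called under anti-p40.

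**Figure D4:**
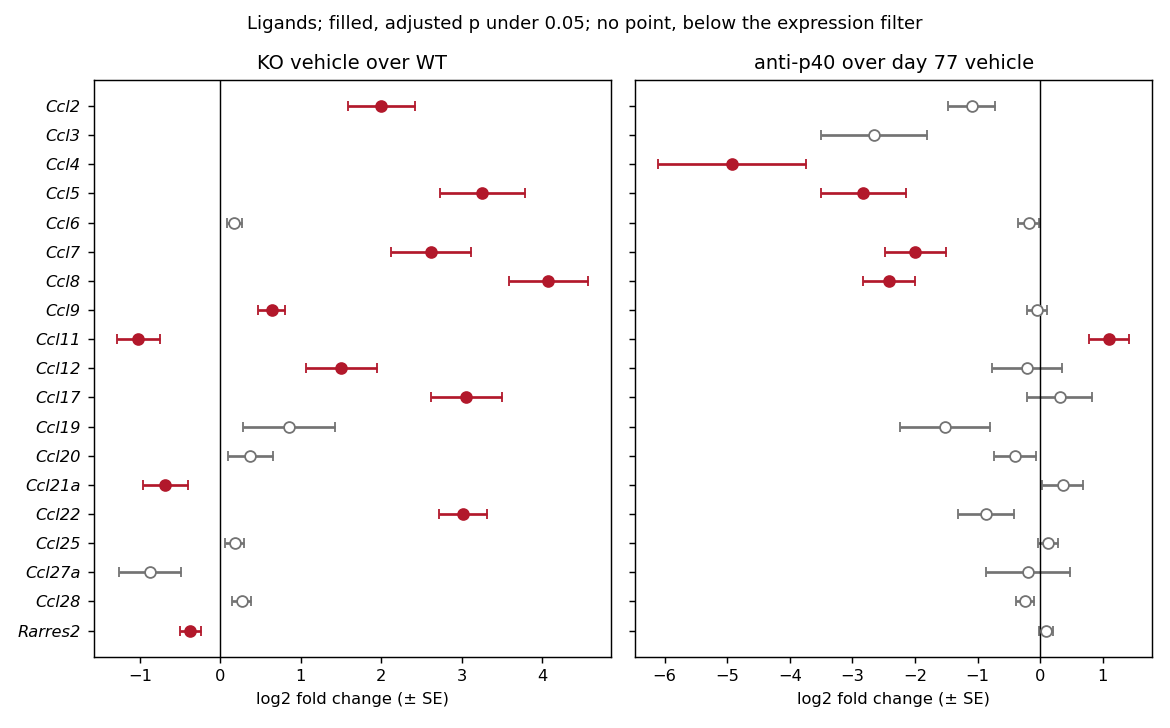
Log2 fold change with SE of each ligand on the list, for knockout vehicle over wild type and for anti-p40 over day 77 vehicle. Filled points passed an adjusted p of 0.05, and ligands below the expression filter have no point. Ccl5, Ccl7 and Ccl8 are filled to the right in the first panel and to the left in the second, while Ccl20, Ccl25 and Ccl28 are open in both.

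Receptors were related to the markers of the cell type each is known from, over 44 libraries, with group means removed. 8 such relations were tested by permutation within groups (100000 resamples, two-sided), and the p-values were adjusted over the 8. Each receptor was related to 1 list only, so whether it follows another list as closely was not tested. That holds for Ccr6 with type 3 lymphocyte markers too. Ccr6 followed B cell markers most closely, with Pearson r = 0.90, Spearman rho = 0.88 and r between 0.78 and 0.96 within each of the 6 groups (adjusted permutation p = 2e-05, of which the unadjusted value, 1e-05, is the smallest the permutations can give). Without the 2 libraries farthest from the list's median, r stayed at 0.90. Ccr10 followed plasma cell markers, with r = 0.79, rho = 0.71, r of 0.80 without the 2 farthest and r of 0.16 to 0.91 within groups (adjusted permutation p = 2e-05). Ccr2 followed monocyte and macrophage markers (r = 0.77, rho = 0.71; 0.71 without the 2 farthest; adjusted permutation p = 2e-05), with r of 0.036 to 0.88 within groups. Ccr1 followed neutrophil markers over all libraries (r = 0.77, rho = 0.67; adjusted permutation p = 2e-05). Within groups, its r was above 0 in 4 of 6 and spanned -0.26 to 0.93, and without knockout vehicle replicate 2 and day 77 vehicle replicate 3, r was 0.67.

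Ackr4 followed fibroblast markers, with r = 0.62 and rho = 0.72, and r within the 6 groups of 0.36 to 0.84 (adjusted permutation p = 6.4e-05). Its relation with smooth muscle markers was not tested. At 30 mg/kg over 10 mg/kg, Ackr4 was at 1.12, and the marker medians were 1.27 for smooth muscle and 0.23 for fibroblasts. In that order, the values were 0.48, 1.19 and -0.07 for anti-p40, and -0.07, 0.84 and -0.15 for the difference of effects. Ccr9 followed T cell markers more loosely, with r = 0.54, rho = 0.55 and r of 0.21 to 0.85 within groups (adjusted permutation p = 0.000293). That relation was not particular to T cells. On the same deviations, Ccr9 had r of 0.62 with Ccr1, 0.61 with Ccr2 and 0.57 with Ccr6, and -0.38 to 0.35 with the other receptors. Ccrl2 with neutrophil markers (r = 0.27, rho = 0.16, within groups -0.44 to 0.54; adjusted permutation p = 0.149) and Ackr2 with lymphatic markers (r = 0.27, rho = 0.24, within groups -0.55 to 0.78; adjusted permutation p = 0.151) did not pass. Cell composition, depth and dissection differ between libraries of a group, and their part was not tested.

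**Figure D5:**
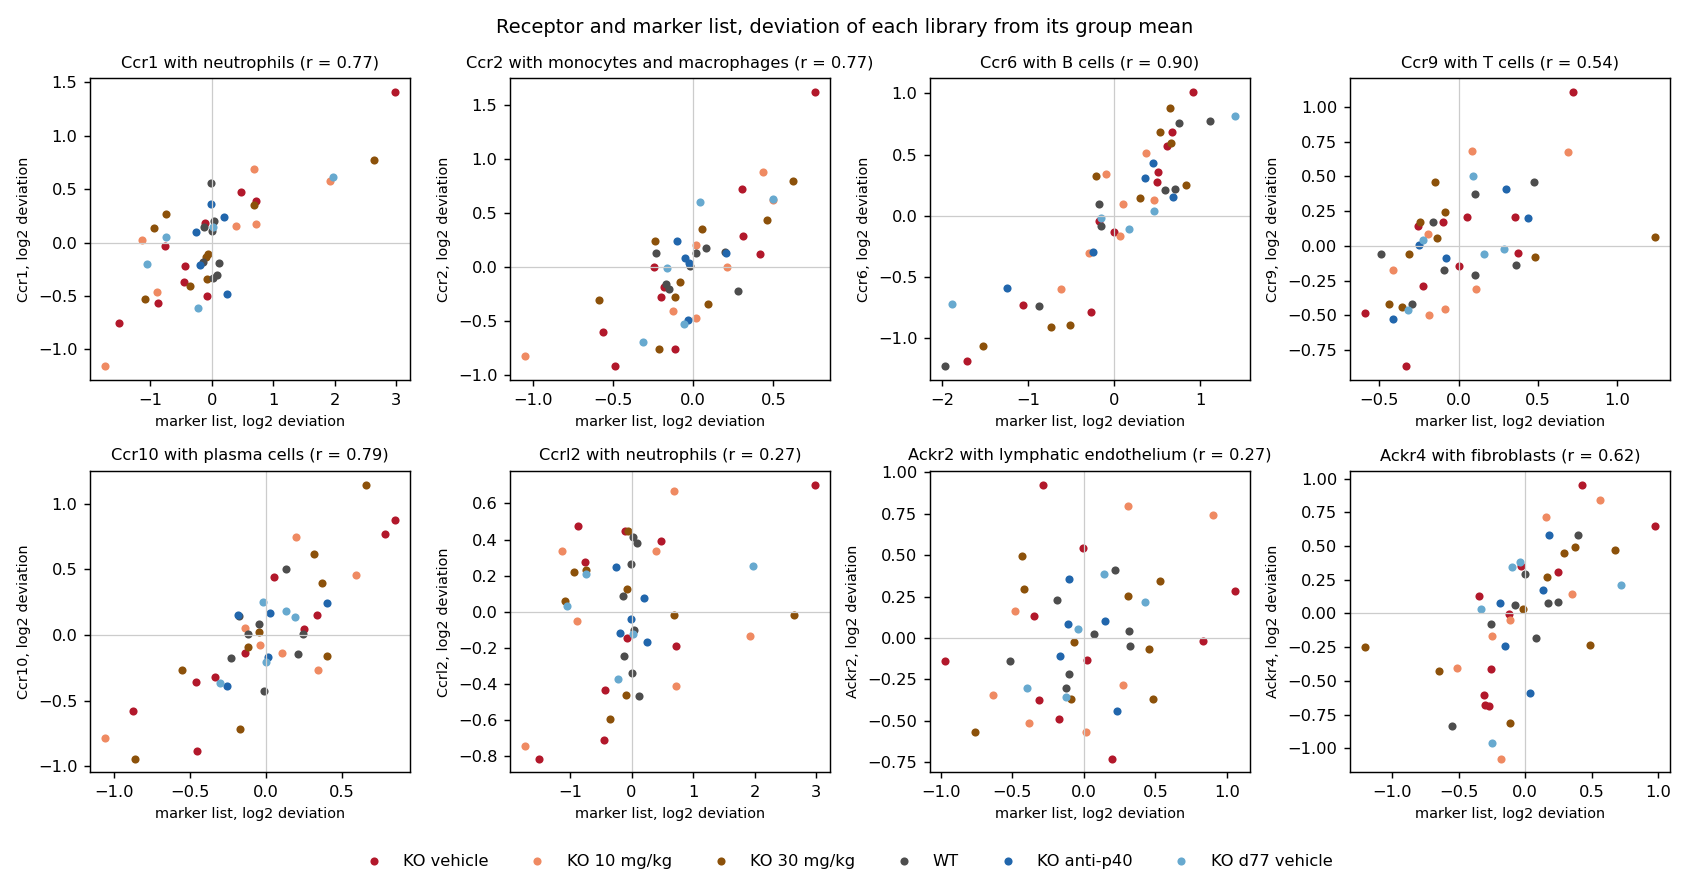
Deviation of each receptor from its group mean, on the log2(CPM + 1) scale, against the deviation of its marker list, with 1 point per library coloured by group. Ccr6 with B cells is the tightest panel (r = 0.90), and Ccrl2 with neutrophils and Ackr2 with lymphatic endothelium are the loosest (r = 0.27 each). Knockout vehicle replicate 2 lies at the far right of the Ccr1 panel.

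Genes whose deviations were most like each receptor were ranked over 18021 genes and 44 libraries, as a description. For Ccr6 they were Wdfy4 (r = 0.93), Ikzf3 (0.91) and Pik3ap1 (0.91). For Ccr10 they were Ighv1-4 (0.77), Derl3 (0.75) and Igha (0.75), the immunoglobulin A heavy chain gene. For Ccr1 they were Lyn (0.86), Clec7a (0.85) and Gsap (0.85), and the first for Ccr2 was Ms4a6d (0.85). For Ccr9 they were Fyb (0.74), Adam8 (0.73) and Ncf1 (0.73). For Ccrl2 they were Ifi44 (0.75), Xaf1 (0.75) and Usp18 (0.73), 3 genes known as interferon-induced. For Ackr2 they were Havcr1 (0.68), Mef2b (0.65) and Gm45223 (0.65), and for Ackr4 Tmc3 (0.93), Etv1 (0.90) and Mturn (0.89). Among pairs of receptors, r was highest for Ccr1 with Ccr2 (0.82) and lowest for Ccr1 with Ackr4 (-0.72).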

How the data were processed

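Estimated counts per gene, not normalized, and TPM for the same libraries were deposited by the authors for the 45 libraries. Software named in the submitters' processing notes was RSEM 1.3.3, STAR 2.7.8a, DESeq2 1.30.1 and cutadapt 3.7, with build mm10 and no role stated. For 4 comparisons, log2 fold changes, p-values, adjusted p-values and a significance score (1, 0 or -1 by fold and adjusted p) were also deposited by the authors, per the file headers. Of 50600 identifiers, 50376 matched GENCODE M21. After rounding, the estimates entered edgeR 4.0.16 (R 4.3.3; robust quasi-likelihood test, TMM, default filter), with Benjamini-Hochberg adjustment over all genes tested and calls at 0.05. The knockout, anti-p40 and dose-over-wild-type comparisons used only the groups compared, and vehicle and both doses shared 1 fit for the compound comparisons, and all 6 groups for the difference of effects. Values per library are CPM scaled by TMM. On simulated data with known changes, the test called 80% of log2 changes of 1 and 95% of changes of 2 in the knockout comparison, and 78% and 89% in the antibody comparison. The changed genes were drawn at random from those with a mean above 1 CPM. These shares thus need not hold at the low levels of the receptors. The receptors and gene lists were chosen with earlier results of these data known. All 8 receptors are named, but only some members of the ligand and other-receptor lists are. No pair of libraries agreed within sampling noise (lowest chi-square per degree of freedom 8.12). The limit that a count of 0 allows covers counting error only, while the 95% intervals come from the edgeR fit and include the spread between libraries. Alternatives were RLE scaling, no filter, DESeq2 1.42.0, limma 3.58.1 (voom, or log2(TPM + 1) and log2(TPM + 0.1)), other sets of groups, and leaving out libraries.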

Additional observations from a re-analysis of the deposited data

Results flagged for a closer look

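In knockout vehicle colon, 1 library of 10, replicate 2, stood apart from the others for 3 receptors. Its Ccr1 level was 31.7 CPM, with the next at 16.1 CPM. Its Ccr2 level was 35.8 CPM, with the next at 18.8 CPM, and its Ccr9 level was 4.83 CPM, with the next at 2.13 CPM. Each gap was large for the group's range by Dixon's 95% critical value. 48 groups of values were tested, of which chance flags about 5%, and the 3 flagged here are near that share. The 3 receptors also varied together over libraries (r of 0.61 to 0.82 between pairs), so their flags are not separate. Ccr1, Ccr2 and Ccr9 remained called higher without this library.

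The anti-p40 effect on Ccr2 differed from the 30 mg/kg effect by -1.87 on the log2 scale (edgeR adjusted p = 0.0242). All 5 anti-p40 libraries lay below all 5 day 77 vehicle libraries for Ccr2. At 30 mg/kg the lowest, median and highest Ccr2 levels were 4.97, 8.21 and 16.6 CPM, against 5.36, 10.3 and 35.8 CPM under vehicle, where the highest is the library that stood apart.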

How the results depend on the processing

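Of the single-receptor estimates under other settings or without a library, 1125 kept their direction and side of the threshold, 10 lost a call, 9 gained one and 32 changed direction. None of those 32 was called in the main comparison. Fits that left out a library share most libraries with the main fit, and gave 697, 4, 4 and 15 in that order. None was run for the doses over wild type, and only day 77 libraries were left out for the difference of effects. Other settings gave 428, 6, 5 and 17. An estimate without an adjusted p counted as kept where its direction held. In the knockout comparison, 6 receptors were called higher and 1 lower with RLE scaling, without the filter, with voom, and without wild-type replicate 5 and knockout vehicle replicates 2 and 3 together; DESeq2 called 7 higher and limma on TPM called 4. No paired analysis was possible because replicate numbers follow the order of deposit and the labels tie no library of one group to one of another. No result rested on a receptor below the filter. The receptors' median counts per library lay between 25 (Ackr2) and 235 (Ccr2), and how far depth limits their differences was not tested.

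Genes called at 10 mg/kg over vehicle (2) came to 81 with DESeq2, 16 with limma on log2(TPM + 1), 20 on log2(TPM + 0.1) and 129 in a fit of all 6 groups, and to 1 to 18 leaving out a library. At 30 mg/kg over vehicle DESeq2 called 1. For 30 mg/kg over 10 mg/kg (0), the counts were 316, 1, 1 and 392, 17 with only those groups, and 0 to 75 leaving out a library; the receptor called lower was 1 with DESeq2, in the fit of all groups, and 0 to 1 leaving out a library. For anti-p40 over day 77 vehicle (1375 genes higher, 1370 lower, 4 receptors lower), the fit of all groups gave 1644 genes and 2 receptors, and leaving out a library gave 1637 (without anti-p40 replicate 2) to 2522 genes. For the antibody effect minus the 30 mg/kg effect (297 genes), DESeq2 gave 650, and leaving out a library gave 167 to 361 genes and 0 to 1 receptors. For 30 mg/kg over wild type, limma on TPM gave 1 receptor lower, Ackr4, on both scales. The cause of these differences was not tested.

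Directions changed on log2(TPM + 1) and log2(TPM + 0.1) as follows. Ccrl2 at 30 mg/kg over vehicle was 0.039 and 0.072, and 0.074 with voom. Ackr2 was 0.034 and 0.17 at 30 mg/kg over 10 mg/kg, 0.033 and 0.020 for anti-p40, -0.093 and -0.21 at 30 mg/kg over wild type, and -0.13 and -0.38 at 10 mg/kg over wild type. Ccr6 was 0.080 and 0.12 for anti-p40, and -0.016 and -0.014 at 30 mg/kg over wild type, where Ccr9 was -0.028 and -0.047. Leaving out a library, estimates spanned -0.28 to 0.28 for Ccr6 under anti-p40, -0.15 to 0.065 for Ccrl2 at 30 mg/kg over vehicle, -0.026 to 0.31 for Ccr10 and -0.51 to 0.015 for Ackr2 at 10 mg/kg over vehicle, and -0.32 to 0.089 for Ackr4 and -0.0014 to 0.43 for Ackr2 in the difference of effects.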

Other observations

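The library with conflicting dose labels had 3.65 TPM of Ccr1, 3.83 of Ccr2, 5.77 of Ccr6, 0.87 of Ccr9, 2.92 of Ccr10, 2.71 of Ccrl2, 0.57 of Ackr2 and 4.42 of Ackr4. Its Ccr9 level lay above the highest 30 mg/kg library (0.60 TPM) and within the range of the 10 mg/kg libraries (0.60 to 1.48 TPM). No dose is inferred from this.

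For knockout vehicle over wild type, the authors' deposited table gives Ackr4 a log2 fold change of -0.99 with an adjusted p of 0.00158 and no significance flag. The same table flags Ccr1, Ccr2, Ccr9, Ccr10, Ccrl2 and Ackr2 as higher and leaves Ccr6 unflagged, with an adjusted p of 0.0544. The authors' deposited table for anti-p40 over day 77 vehicle flags Ccr1, Ccr2, Ccr10 and Ccrl2 as lower.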
